A study of Rattus norvegicus with 54 samples.

Results

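The Dlk1-Dio3 miRNAs are cut from a dense run of hairpin genes in an imprinted domain, a stretch of DNA in which a gene is read from the chromosome of only 1 parent. Members were taken as the lines of the rat miRNA count table whose number after rno-miR- is 1 of 45 numbers known from this domain. They were 91 of 832 lines, and 44 of the 45 numbers had a line (miR-889 had none). The lines named miR-434-5p and miR-434-3p each had a copy with the same counts in all 54 libraries, so the members are 89 mature miRNAs when copies are counted once. A mature miRNA is a short RNA from the 5p or 3p arm of a hairpin.

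In mammals the protein-coding genes of the domain, Dlk1, Rtl1 and Dio3, are active on the chromosome from the father, and the noncoding RNAs, Meg3 and the miRNAs among them, are made from the chromosome of the mother. In mice, miR-127, miR-136, miR-431, miR-433 and miR-434 lie opposite Rtl1, pair fully with its transcript and lower it. In mice these miRNAs are abundant in brain, embryo and placenta, and low in most adult organs. In rat neurons the run from miR-379 to miR-410 responds to neuronal activity through Mef2, and miR-134, which belongs to it, limits the growth of dendritic spines through the kinase Limk1.

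Male Sprague–Dawley rats, 9 weeks old by the sample labels, received a dose of a toxicant or its vehicle once, and small RNA was sequenced (miR-seq) from the damaged organ, plasma and urine. Cisplatin, which damages kidney tubules, was given into a vein at 5 mg per kg, against 0.9% saline, with kidney, plasma and urine taken at 72 h (the urine labels give 1500 mg per kg, and the dose of the study's methods is used here). Acetaminophen (APAP) was given by mouth at 1250 mg per kg, against 0.5% methylcellulose, and carbon tetrachloride (CCl4) by mouth at 1500 mg per kg, against corn oil, with liver, plasma and urine taken at 24 h. These sample types and treatments make 18 groups of 3 libraries. The study used 3 animals per treatment, so plasma and organ of a treatment may come from the same rats. By the study's methods, RNA of plasma and urine was isolated with another procedure than RNA of kidney and liver. Sample type and procedure therefore cannot be told apart wherever a fluid is set beside an organ.

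The reference put the members where their name says. Of 89 mature members, 86 matched a miRNA of the RefSeq table of rat assembly GRCr8, from 47 hairpins, and all 86 lie on chromosome 6, within 282 kb. All but 3 are on the plus strand. Dlk1 and Meg3 come before them and Dio3 after them in the order of RefSeq genes. In that order come a Meg3-side group of 11 members (miR-770 to miR-665, 23.7 kb), the Rtl1-antisense group of 9 (7 placed, 4.94 kb), miR-341 with the 2 arms of miR-370 (6.69 kb) and, after 189 kb that hold small nucleolar RNA genes, the miR-379 to miR-410 group of 66 (65 placed, 36.4 kb). The counts were made on assembly Rnor_5.0, and no position was converted.

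The 12 members with most reads held 90.5% of the 15993 member reads, and the results below turn on them. Their mature sequences, 5′ to 3′ and from RefSeq (GRCr8, plus strand), are shown in chromosome order so that the arms and neighbours can be compared, with the seed (bases 2 to 8, which pairs with a target) in capitals. miR-136-5p, also among the 12, is named only.
miR-127-3p (chr6:134328510-134328531): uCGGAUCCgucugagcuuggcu
miR-434-3p (chr6:134330451-134330472): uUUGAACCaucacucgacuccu
miR-136-3p (chr6:134331383-134331404): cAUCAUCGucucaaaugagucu
miR-341 (chr6:134347871-134347891): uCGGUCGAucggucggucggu
miR-411-5p (chr6:134544604-134544624): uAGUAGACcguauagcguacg
miR-300-3p (chr6:134559968-134559989): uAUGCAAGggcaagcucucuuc
miR-134-5p (chr6:134570320-134570341): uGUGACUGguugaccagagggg
miR-541-5p (chr6:134578434-134578458): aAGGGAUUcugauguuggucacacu
miR-409a-3p (chr6:134579231-134579250): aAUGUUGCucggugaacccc
miR-410-5p (chr6:134579773-134579793): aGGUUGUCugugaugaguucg
miR-410-3p (chr6:134579808-134579828): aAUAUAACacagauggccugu
The 11 seeds differ from each other. Over the 86 placed members there were 80 distinct seeds, of which 5 were shared by more than 1 member. The seed of miR-410-5p is also that of miR-494-5p and miR-496-5p, which with it had 524 reads, 523 of them on miR-410-5p. None of the 11 shared an exact run of 16 bases with another of the 692 distinct rat mature miRNA sequences searched. The alignment of the counts allowed 2 mismatches, so this search does not show that reads belong to 1 member only. The seeds of miR-300-3p (810 reads) and miR-381-3p (53 reads), for example, are the similar AUGCAAG and AUACAAG. Whether reads of such members were counted on each other was not tested.

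Libraries held 372997 to 3591541 counted reads in kidney, 273410 to 2213358 in liver, 21627 to 1290244 in plasma and up to 58151 in urine, where the median was 1311.5. The plasma library methylcellulose 3 was the shallow one, and the next lowest plasma library had 70736. The liver miRNAs miR-122-5p, miR-122-3p and miR-802-5p summed to 19419 to 26329 reads per 1000000 counted reads (CPM) in liver and 8.04 to 33.5 CPM in kidney. A list of 5 miRNAs chosen for kidney summed to 405178 to 456189 CPM in kidney. Its level in liver is not given here, so this sum does not show that the list is particular to kidney. In urine, a chi-square test of counts did not tell the libraries of 3 same-group pairs apart (chi-square per degree of freedom 1.26 to 1.49, on 625 to 1372 reads a library). Each pair was counted as 1 sample, although so few reads do not show that the libraries are the same. In bulk samples, fewer cells of a type and less RNA per cell cannot be told apart.

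Among kidney, plasma and liver, kidney had the highest mean share of reads on this cluster and liver the lowest. Members took 0.0478% ± 0.0301 of all counted reads in the 18 plasma libraries, 0.102% ± 0.0169 in the 6 kidney libraries and 0.0133% ± 0.00442 in the 12 liver libraries (mean ± SD). The kidney libraries ranged between 0.0853% and 0.129% and the liver libraries between 0.00639% and 0.0201%, so the organs did not overlap. Plasma ranged between 0.0152% and 0.121% and overlapped both. No test was made of these sums. Each share also has a counting interval, which covers counting error only, since reads without molecular identifiers are not independent molecules. Shares count the copies of a miRNA once, in members and in the total. Methylcellulose plasma 3 had 5 member reads, and its interval was 0.00854% to 0.0613%.

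**Figure D1:**
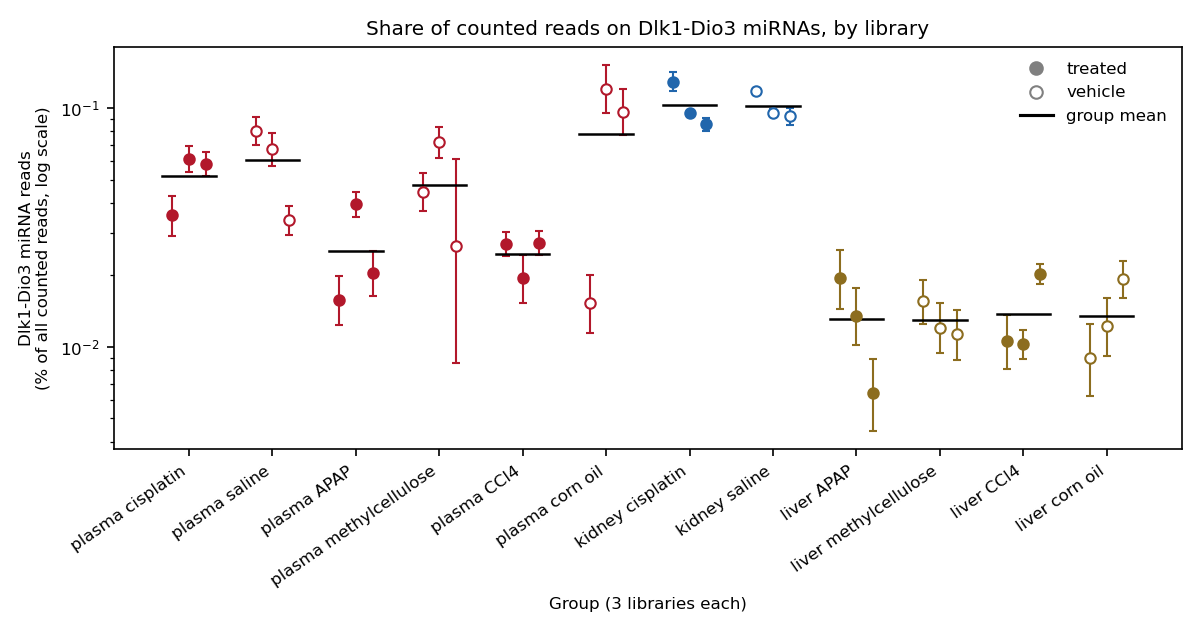
Share of all counted reads on the Dlk1-Dio3 miRNAs (%, log axis) in each of 36 libraries. Points are libraries with exact 95% Clopper-Pearson intervals, filled for treated and open for vehicle, and lines are group means. All 6 kidney libraries sit between 0.0853% and 0.129%, above all 12 liver libraries, which end at 0.0201%.

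More members were seen in kidney too. At least 1 read was found for 55 of 89 members in plasma, 71 in kidney, 46 in liver and 13 in urine. Over all libraries 80 had a read, 47 had 10 or more, and 9 had none: miR-433-5p, miR-370-5p, miR-679, miR-758-5p, miR-323-5p, miR-299b-5p, miR-299b-3p, miR-409b and miR-496-5p. Depth differs between these sample types. At an equal depth of 20000 reads the expected number was 5.01 ± 1.92 members in plasma (n = 17, without methylcellulose plasma 3), 7.78 ± 0.793 in kidney (n = 6) and 1.99 ± 0.523 in liver (n = 12).

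**Figure D2:**
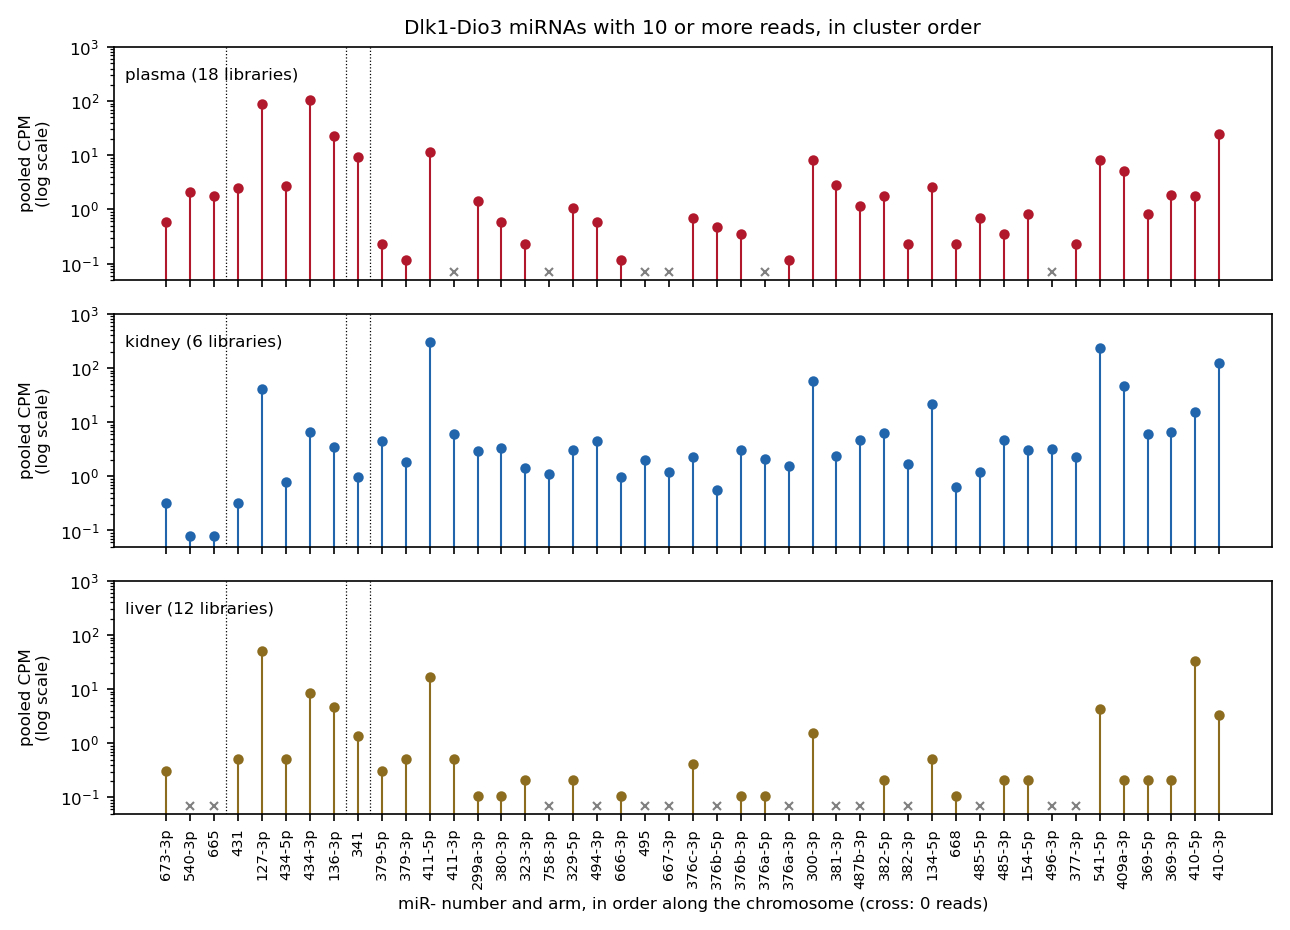
Level of the 45 placed members with 10 or more reads, in order along the chromosome, pooled over the libraries of each sample type (CPM, log axis). Dotted lines part the Meg3-side, Rtl1-antisense, miR-341 and miR-379 to miR-410 groups, and crosses are members with 0 reads. In kidney the tall lines stand in the miR-379 to miR-410 group, and in plasma at miR-127-3p and miR-434-3p.

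The make-up of the cluster differed between sample types as well. The Rtl1-antisense group held 60.0% to 79.5% of member reads in plasma, 4.58% to 13.2% in kidney and 36.1% to 58.6% in liver, and these ranges do not overlap. The miR-379 to miR-410 group held 17.3% to 40.0% in plasma, 85.9% to 95.3% in kidney and 39.3% to 60.2% in liver. The plasma limits of 60.0% and 40.0% are both methylcellulose plasma 3, with 3 and 2 of its 5 member reads. That is too few reads to place this library apart from liver. The next lowest Rtl1-antisense share in plasma was 62.7%, in CCl4 plasma 2. In kidney the highest Rtl1-antisense share, 13.2%, was in cisplatin library 1, which was also the shallowest kidney library.

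**Figure D3:**
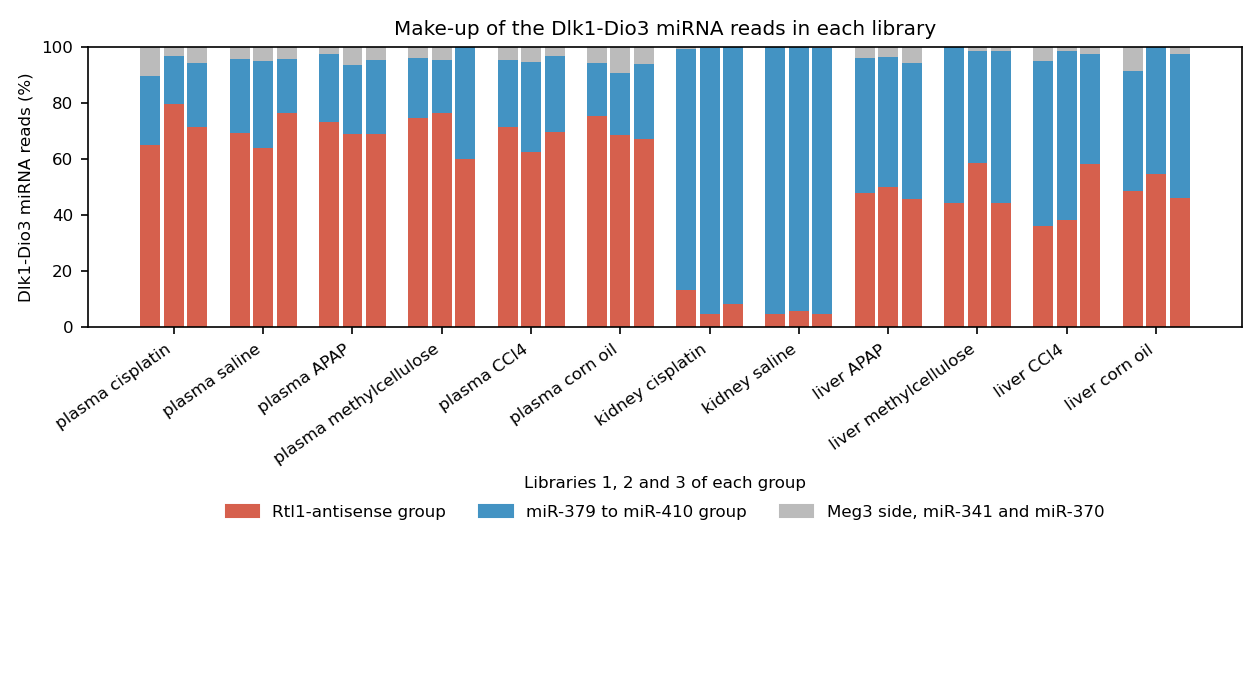
Percent of the Dlk1-Dio3 miRNA reads in each library that fall in the Rtl1-antisense group (red), the miR-379 to miR-410 group (blue) and the rest (grey). Red is 60.0% or more in all 18 plasma libraries and at most 13.2% in all 6 kidney libraries. The 60.0% is 3 of 5 reads, in methylcellulose plasma 3.

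Plasma was compared with kidney in the saline rats, to set the cluster in the circulation beside that of the organ. Plasma, kidney and liver libraries share no L number in their column names, whose meaning the names do not give. L number and RNA procedure therefore cannot be told apart from sample type here or against liver. Counts were tested with edgeR's quasi-likelihood test, with Benjamini-Hochberg adjusted p over all miRNAs tested. Log2 fold changes are plasma over kidney after TMM scaling, with the standard error (SE). After a filter on low counts 9 of 89 members were tested: 3 were higher in plasma, 6 lower, and none missed the threshold of 0.05. Of all 278 miRNAs tested, 39.2% were called higher and 45.7% lower (84.9% in all), and 87.8% had groups that did not overlap, so a call by itself says little. Most of the 6 lower members had few plasma reads and passed the filter through kidney, so their number does not show the direction of the cluster. Of the 3 higher, miR-434-3p and miR-136-3p were low in kidney and passed the filter through plasma, so the same limit holds for them. The median log2 change over all miRNAs tested was -0.23 under TMM and 0.40 under total counts, and the direction of all 9 members was the same under both.

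The 3 that were higher are all of the Rtl1-antisense group, and the 6 that were lower are all of the miR-379 to miR-410 group. miR-434-3p had 205, 173 and 111 CPM in saline plasma and 7.24, 5.29 and 6.39 CPM in saline kidney. The log2 change was 3.97 (SE 0.32, edgeR quasi-likelihood adjusted p = 7.95e-08), and no plasma library came near the kidney libraries. miR-136-3p, the next hairpin along the chromosome, had 39.7, 22.1 and 24.4 CPM in saline plasma and 2.11, 4.18 and 6.39 CPM in saline kidney. The groups did not overlap (log2 change 2.31, SE 0.39, edgeR quasi-likelihood adjusted p = 9.03e-05).

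miR-127-3p, opposite Rtl1 like the other Rtl1-antisense miRNAs, was closer between plasma and kidney. It had 185, 155 and 66.1 CPM in saline plasma and 39.8, 41.8 and 24.0 CPM in saline kidney. The log2 change was 1.13 (SE 0.35, edgeR quasi-likelihood adjusted p = 0.00932). Without kidney saline 2 or 3, or plasma saline 1 or 2, its adjusted p was 0.0668 to 0.168, so this call rests on each of those libraries.

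Members of the miR-379 to miR-410 group were the reverse. miR-411-5p, near the start of that run, had 26.4, 25.8 and 5.75 CPM in saline plasma and 358, 306 and 267 CPM in saline kidney (log2 change -4.91, SE 0.40, edgeR quasi-likelihood adjusted p = 1.05e-07). miR-541-5p, near its end, had 29.7, 25.8 and 1.44 CPM in saline plasma and 271, 214 and 224 CPM in saline kidney (log2 change -4.64, SE 0.50, edgeR quasi-likelihood adjusted p = 1.41e-06). For both, the highest plasma library lay far below the lowest kidney library, and saline plasma 3 was the lowest library.

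miR-300-3p (log2 change -3.40, SE 0.42), miR-409a-3p (-2.83, SE 0.43) and miR-410-3p (-2.02, SE 0.40) were lower as well, with no overlap of the groups. miR-410-3p, of the last hairpin of the run, had 66.1, 81.1 and 17.3 CPM in saline plasma and 146, 103 and 128 CPM in saline kidney. Its difference was the smallest of the 6. miR-134-5p, the dendritic spine miRNA, had 1 read in the 3 saline plasma libraries and 165 in the 3 saline kidney libraries. Its level per read was 27.8-fold higher in kidney, with a counting interval of 4.92 to 1105.

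In cisplatin rats the same comparison gave 1 member higher in plasma, 5 lower and 1 that did not pass, of 7 tested. Most of those called passed the filter through the sample type where they were high. Of all 264 miRNAs tested, 36.7% were called higher and 43.6% lower (80.3% in all), and 81.8% had groups that did not overlap. miR-434-3p had 62.1, 187 and 161 CPM in cisplatin plasma and 32.2, 3.96 and 8.67 CPM in cisplatin kidney (log2 change 3.45, SE 0.60, edgeR quasi-likelihood adjusted p = 4.56e-05). miR-411-5p, miR-541-5p, miR-410-3p, miR-300-3p and miR-409a-3p were lower, by log2 changes of -5.02 to -2.45. miR-127-3p had 103, 153 and 137 CPM in cisplatin plasma and 118, 33.2 and 49.6 CPM in cisplatin kidney and did not pass (edgeR quasi-likelihood adjusted p = 0.114). Cisplatin kidney 1 is the library that overlaps plasma here. Without it 10 members were tested and called, 4 higher and 6 lower, miR-127-3p and both arms of miR-136 among the 4. The filter was applied anew in that fit. Both arms of miR-136 and miR-134-5p entered there and were not among the 7 tested with all libraries. Leaving out each library in turn gave 7 to 10 calls, so a gain is not particular to cisplatin kidney 1.

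miRNAs of other tissues move with these differences. The 4 muscle miRNAs (miR-1-3p, miR-133a-3p, miR-133b-3p and miR-206-3p) summed to 155 to 13473 CPM in plasma and 18.8 to 28.7 CPM in kidney, with 3 of the 4 seen in kidney. The 4 leukocyte miRNAs, all seen in both, summed to 3010 to 47373 CPM in plasma and 930 to 1470 CPM in kidney. Their part in the result was not tested.

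**Figure D4:**
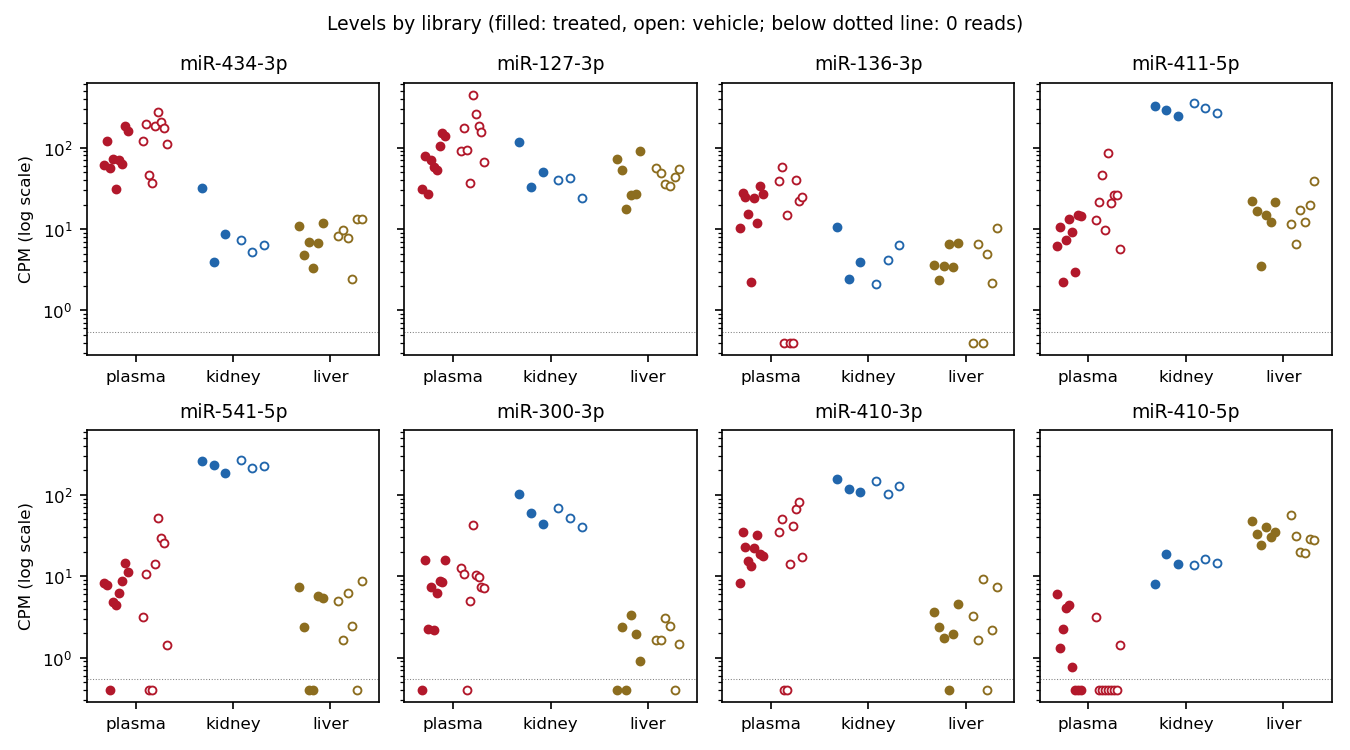
CPM (log axis) of 8 members in each plasma, kidney and liver library, filled for treated and open for vehicle, with libraries at 0 reads below the dotted line. By mean CPM, miR-434-3p is highest in plasma, and miR-411-5p, miR-541-5p, miR-300-3p and miR-410-3p are highest in kidney. Single libraries overlap for miR-434-3p (kidney up to 32.2 CPM, plasma from 31.0) and miR-300-3p (plasma up to 42.4 CPM, kidney from 39.9). miR-410-5p is highest in liver, where its 12 libraries sit between 19.5 and 57.3 CPM.

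Plasma was also compared with liver, in 4 groups of rats, and miR-434-3p was higher in plasma in each of them. Its liver reads were few and it passed the read filter through plasma, so these calls carry that selection. In methylcellulose rats it had 122, 193 and 46.2 CPM in plasma and 8.18, 9.79 and 7.68 CPM in liver (log2 change 2.72, SE 0.39, edgeR quasi-likelihood adjusted p = 1.92e-05). The value of 46.2 CPM, in plasma library 3, is 1 read. In corn oil rats it had 36.9, 184 and 270 CPM in plasma and 2.44, 13.1 and 13.1 CPM in liver (log2 change 3.19, SE 0.79, edgeR quasi-likelihood adjusted p = 0.00717). The lowest plasma library lay above the highest liver library in both.

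In APAP rats miR-434-3p had 61.3, 121 and 56.6 CPM in plasma and 10.97, 4.78 and 6.95 CPM in liver (log2 change 3.48, SE 0.54, edgeR quasi-likelihood adjusted p = 3.08e-05). In CCl4 rats it had 71.5, 31.0 and 71.3 CPM in plasma and 3.31, 6.76 and 11.7 CPM in liver (log2 change 2.72, SE 0.41, edgeR quasi-likelihood adjusted p = 0.000122). These groups did not overlap either. Its neighbour miR-127-3p was tested in all 4 and passed in none, with log2 changes of 0.05 to 1.69 and adjusted p of 0.0888 to 0.941 in edgeR's quasi-likelihood test. These missed calls depend on the setting. It was called higher in plasma in methylcellulose rats without plasma 1 or 3 and under total counts (log2 change 1.46), in corn oil rats without plasma 1, under total counts and by DESeq2, and in CCl4 rats without liver 3 (log2 change 1.05).

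Few members passed the read filter against liver. Most of those called passed it through the sample type where they were high, so their number shows no direction. Of 2 tested in methylcellulose rats 1 was called, higher in plasma, where 28.5% of all 246 miRNAs were called higher and 52.0% lower, 80.5% in all and 80.1% without overlap (112 and 70 miRNAs under total counts, against 70 and 128). Of 2 tested in corn oil rats 1 was called, higher in plasma, where 29.8% of all 242 were called higher and 30.2% lower, 59.9% in all and 69.0% without overlap (91 and 54 under total counts, against 72 and 73). Of 3 tested in APAP rats 1 was higher and 1 lower, where 29.2% of all 240 were higher and 30.4% lower, 59.6% in all and 66.7% without overlap. Of 6 tested in CCl4 rats 3 were higher and 2 lower, where 38.9% of all 316 were higher and 35.1% lower, 74.1% in all and 77.2% without overlap.

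These counts of calls differ in the fits that left out a library, while miR-434-3p was called in each of those fits. The read filter was applied anew in each and asked for fewer libraries, so more members could enter. In methylcellulose rats 4 to 7 members were tested in these fits, against 2 with all libraries. The change in counts is therefore not the effect of single libraries alone. In methylcellulose rats 2 to 6 members were called, whichever library was left out. In corn oil rats 2 or 3 were called without liver 1 or plasma 1, 2 or 3, and in APAP rats 4 without liver 1, 2 or 3 or plasma 1. miR-136-3p, miR-136-5p and miR-410-3p, where called in these fits, were higher in plasma, and miR-410-5p was lower.

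The members that were lower in plasma than in liver were of the miR-379 to miR-410 group. miR-410-5p had 6.13, 1.31 and 2.26 CPM in APAP plasma and 47.5, 33.4 and 24.3 CPM in APAP liver (log2 change -3.36, SE 0.69, edgeR quasi-likelihood adjusted p = 0.00045). It had 4.06, 4.42 and 0.775 CPM in CCl4 plasma and 39.7, 30.4 and 35.2 CPM in CCl4 liver (log2 change -3.78, SE 0.50, edgeR quasi-likelihood adjusted p = 5.18e-05). In both it lay far below every liver library. In corn oil rats it had 0 reads in plasma and 40 in liver, so it was at least 4.92-fold lower in plasma (bound from a floor of 3 counts, taken over the 3 plasma libraries).

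In CCl4 rats 3 further members passed. miR-410-3p had 15.4, 13.3 and 22.5 CPM in CCl4 plasma and 0, 1.93 and 4.52 CPM in CCl4 liver (log2 change 2.47, SE 0.48, edgeR quasi-likelihood adjusted p = 0.00073), so the arms of the miR-410 hairpin were called in opposite directions. miR-136-5p had 32 reads in the 3 CCl4 plasma libraries and 2 in the 3 CCl4 liver libraries, a level 26.3-fold higher in plasma with a counting interval of 6.71 to 226.6. miR-411-5p had 7.32, 13.3 and 9.30 CPM in CCl4 plasma and 14.9, 12.1 and 21.2 CPM in CCl4 liver, with overlap (log2 change -0.97, SE 0.39, edgeR quasi-likelihood adjusted p = 0.0409). Its adjusted p was above 0.05 in 9 alternatives, 4 of which left out 1 library (CCl4 liver 1 or 3, CCl4 plasma 1 or 3).

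Against liver too, the muscle list was higher in every plasma library, while the ranges of the leukocyte list overlapped. The muscle list summed to at most 21.7 CPM in liver (155 to 13473 CPM in plasma), and the leukocyte list to 2430 to 4953 CPM in liver (3010 to 47373 CPM in plasma). Their part in the result was not tested.

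Kidney was compared with liver over the vehicle rats, 3 saline kidneys against 6 livers. Of 8 members tested 6 were higher in kidney, 1 lower and 1 did not pass, and of all 275 miRNAs tested 36.4% were called higher and 42.9% lower (79.3% in all), with 73.1% without overlap. Most of the 6 had few liver reads and passed the filter through kidney, so their number does not show the direction of the cluster. Kidneys were taken at 72 h and livers at 24 h after other vehicles, so organ, time, vehicle and L number cannot be told apart.

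miR-541-5p had 271, 214 and 224 CPM in saline kidney and 0 to 8.74 CPM in the 6 vehicle livers (log2 change 5.62, SE 0.26, edgeR quasi-likelihood adjusted p = 4.67e-15). miR-411-5p had 358, 306 and 267 CPM in saline kidney and 6.53 to 39.3 CPM in vehicle livers (log2 change 3.98, SE 0.24, edgeR quasi-likelihood adjusted p = 4.56e-13). miR-300-3p (log2 change 4.80, SE 0.36) and miR-410-3p (4.70, SE 0.31) were higher to a like degree. For these 4, every kidney library lay above every liver library.

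miR-409a-3p and miR-134-5p were nearly absent from liver at this depth. miR-409a-3p had 389 reads in 3 saline kidneys and 2 in 6 vehicle livers, a level 88.5-fold higher in kidney with a counting interval of 24.3 to 733.6. miR-134-5p had 165 reads in the saline kidneys and 2 in the vehicle livers, a level 37.5-fold higher in kidney with an interval of 10.2 to 312.7. A set of 18 other members of the run were too low to be tested and had 10 or more reads in saline kidney and 0 in vehicle liver. They were picked for that difference, so it is a description and adds nothing to the calls.

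miR-127-3p did not follow that pattern. It had 39.8, 41.8 and 24.0 CPM in saline kidney and 34.1 to 55.6 CPM in vehicle livers, with overlap (log2 change -0.40, SE 0.20, edgeR quasi-likelihood adjusted p = 0.0651). Single livers decide this: it was called lower in kidney without methylcellulose liver 3 (-0.49, adjusted p = 0.0301 in the same edgeR test) or without corn oil liver 1 (-0.46, adjusted p = 0.0413). Beside the kidney result, the 4 neuronal miRNAs (miR-124-3p, miR-9a-5p, miR-129-5p and miR-138-5p), all seen in both, summed to 194 to 309 CPM in kidney and 19.9 to 63.8 CPM in liver. Their part in it was not tested.

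The last hairpin of the run, miR-410, showed both arms in different proportions, a pattern noticed after its values were seen and given without a test. In plasma, with 225 reads on both arms, 6.67% came from the 5p arm (exact Clopper-Pearson 95% interval 3.78% to 10.8%). In kidney, with 1709 reads, 11.4% did (9.94% to 13.0%), and in liver, with 345 reads, 90.7% did (87.2% to 93.6%). By library the 5p share was 0% to 42.9% in the 16 plasma libraries with a read on either arm, 4.92% to 13.7% in kidney and 68.4% to 100% in liver. The liver libraries lay above all others.

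Levels show which arm moved between the organs. miR-410-3p had 146, 103 and 128 CPM in saline kidney and 0 to 9.22 CPM in vehicle livers. miR-410-5p had 13.9, 16.1 and 14.4 CPM in saline kidney and 19.5 to 57.3 CPM in vehicle livers, and was lower in kidney (log2 change -1.17, SE 0.27, edgeR quasi-likelihood adjusted p = 0.000381). Under TMM scaling the kidney libraries lay below every vehicle liver library for the 5p arm and above every one for the 3p arm. Of 6 hairpins with 20 or more reads in both kidney and liver, miR-410 was the 1 whose majority arm differed, and of 11 hairpins in both plasma and kidney none differed.

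The other leading hairpins favoured the same arm in plasma, kidney and liver. The 5p arm of miR-411 held 100% of its reads in plasma, 98.1% in kidney and 97.0% in liver, and that of miR-541 held 100% in plasma, 99.97% in kidney and 100% in liver. The 3p arm led for miR-127, whose 5p arm held 26 of 784 reads in plasma, 0 of 513 in kidney and 1 of 482 in liver, and for miR-434, whose 5p arm held 2.53% in plasma, 10.8% in kidney and 5.68% in liver. The 2 arms of miR-136 were more even: 42.4% of plasma reads, 21.8% of kidney reads and 18.5% of liver reads were 5p. The reads of miR-300 and miR-409a lay on the 3p arm and those of miR-134 on the 5p arm, with 1, 9 and 9 reads on their other arms over all libraries.

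Cisplatin was set against saline in kidney to see whether the damaged organ changed this cluster, and no member passed. Of 17 members tested 0 were called, where 1.74% of all 344 miRNAs were. No member had an unadjusted p under 0.05, and DESeq2 called 0 members in this and in each of the other treatment comparisons and interactions. The members' median log2 change was 0.03, against 0.05 over all miRNAs tested. The 3 smallest unadjusted p belonged to miR-127-3p, miR-369-3p and miR-409a-3p.

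miR-127-3p had 118, 33.2 and 49.6 CPM in cisplatin kidney and 39.8, 41.8 and 24.0 CPM in saline kidney (log2 change 0.77, SE 0.42, edgeR quasi-likelihood adjusted p = 0.862). Cisplatin kidney 1 was high and the groups overlapped. The same library was highest for miR-434-3p, with 32.2, 3.96 and 8.67 CPM in cisplatin kidney and 7.24, 5.29 and 6.39 CPM in saline kidney. miR-369-3p had 2.68, 3.35 and 7.88 CPM in cisplatin kidney and 8.14, 8.07 and 7.99 CPM in saline kidney (log2 change -0.75, SE 0.43). It was the 1 member of 17 whose groups did not overlap, where 14.5% of all miRNAs tested did not. The red blood cell list (3 of its 4 miRNAs are in the table by name) summed to 96.1 to 174 CPM in cisplatin kidney and 364 to 418 CPM in saline kidney. Its part in these values was not tested.

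The most abundant members of kidney did not pass either. miR-411-5p had 327, 290 and 245 CPM in cisplatin kidney and 358, 306 and 267 CPM in saline kidney (log2 change -0.11, SE 0.16). miR-541-5p had 257, 232 and 187 CPM in cisplatin kidney and 271, 214 and 224 CPM in saline kidney (log2 change -0.06, SE 0.16). The groups overlapped for both. In the same-numbered pairs miR-411-5p and miR-369-3p were lower in cisplatin kidney in 3 of 3, and miR-300-3p in 0 of 3. The other members tested were mixed, so pairs alike in direction say little. With the replicate number as a block the log2 change of miR-411-5p was -0.09 (SE 0.13, edgeR quasi-likelihood adjusted p = 0.821). In the fit without the block, tested members whose log2 change is not given above had values of -0.33 to 0.64.

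In plasma after cisplatin 0 of 5 members tested passed, where 4.05% of all 222 miRNAs did and 13.1% had groups without overlap. No member had an unadjusted p under 0.05. miR-410-3p had 32.5, 18.9 and 17.6 CPM in cisplatin plasma and 66.1, 81.1 and 17.3 CPM in saline plasma (log2 change -0.98, SE 0.52, edgeR quasi-likelihood adjusted p = 0.375). Saline plasma 3 lay with the cisplatin libraries. miR-127-3p had 103, 153 and 137 CPM in cisplatin plasma and 185, 155 and 66.1 CPM in saline plasma, with overlap (log2 change 0.22, SE 0.37). miR-341 overlapped as well (log2 change -0.099, SE 0.58, edgeR quasi-likelihood adjusted p = 0.958). The red blood cell list summed to 554 to 857 CPM in cisplatin plasma and 2306 to 2449 CPM in saline plasma, and its part was not tested.

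The study's own list for cisplatin plasma names miR-134 and miR-431, and both were below the read filter here. miR-134-5p had 4, 2 and 4 reads in cisplatin plasma and 1, 0 and 0 reads in saline plasma. The cisplatin libraries were all higher, and the ratio of summed levels was 8.81 with a counting interval of 1.25 to 382.4. miR-431, an Rtl1-antisense miRNA, had 0, 6 and 5 reads in cisplatin plasma and 1, 0 and 1 reads in saline plasma, with overlap, and a ratio of 4.85 (interval 1.06 to 45.0). These intervals cover counting error only and leave out the spread between rats. The ratios are of levels per counted read, and the study's fold changes came from DESeq2, so the 2 are unlike measures. The thresholds are unlike too. The study listed miRNAs by a fold change limit and a P under 0.05, for which it names no adjustment, while calls here use adjusted p.

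In liver after APAP 0 of 2 members tested passed, where 3.21% of all 249 miRNAs did and 14.5% had groups without overlap. miR-410-5p had 47.5, 33.4 and 24.3 CPM in APAP liver and 57.3, 31.0 and 20.0 CPM in methylcellulose liver (log2 change -0.12, SE 0.38). miR-127-3p had 73.2, 52.5 and 17.4 CPM in APAP liver and 55.6, 49.0 and 35.3 CPM in methylcellulose liver (log2 change -0.11, SE 0.36). Both overlapped between the groups, and neither had an unadjusted p under 0.05.

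In liver after CCl4 0 of 3 members tested passed, where 2.76% of all 254 miRNAs did and 24.8% had groups without overlap. miR-411-5p had 14.9, 12.1 and 21.2 CPM in CCl4 liver and 12.2, 19.7 and 39.3 CPM in corn oil liver (log2 change -0.79, SE 0.42, edgeR quasi-likelihood adjusted p = 0.287). The other 2, miR-410-5p and miR-127-3p, had log2 changes of 0.27 (SE 0.33) and -0.0046 (SE 0.44). All 3 overlapped between the groups, and none had an unadjusted p under 0.05.

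In plasma after APAP 0 of 4 members tested passed, although 26.9% of all 227 miRNAs did (49 higher and 12 lower, but 26 and 49 under total counts) and 48.9% had groups without overlap. No member had an unadjusted p under 0.05. The members' log2 changes ran between -0.25 and 0.46, with a median of 0.18, beside 0.21 over all miRNAs tested. miR-434-3p had 61.3, 121 and 56.6 CPM in APAP plasma and 122, 193 and 46.2 CPM in methylcellulose plasma (log2 change 0.46, SE 0.55, edgeR quasi-likelihood adjusted p = 0.56). The sign depends on the scaling. Under total counts the log2 change was -0.78, while the median over all miRNAs tested was -0.92.

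The make-up of APAP plasma differs widely from its vehicle. miR-22-3p alone took 23.6% to 37.4% of the counted reads in APAP plasma, and the liver list summed to 2750 to 3021 CPM in APAP plasma and 0 to 89.5 CPM in methylcellulose plasma. The leukocyte list summed to 3010 to 17578 CPM in APAP plasma and 35187 to 43464 CPM in methylcellulose plasma. The part of these in the members' values was not tested. The study's list for this plasma names miR-410-5p, the less abundant arm of its hairpin in plasma, and miR-665. miR-410-5p had 3, 1 and 1 reads in APAP plasma and 1, 0 and 0 reads in methylcellulose plasma, a ratio of levels of 1.81 with a counting interval of 0.203 to 85.6. miR-665 had 2, 2 and 3 reads in APAP plasma and 1, 0 and 0 reads in methylcellulose plasma, a ratio of 2.53 (interval 0.326 to 114.2). Neither ratio can be told from 1 at this depth. Both are of levels per counted read, under which the median log2 change over all miRNAs tested was -0.92. The study's fold changes came from DESeq2, so these ratios are an unlike measure, and its threshold was unlike the adjusted p used here. The abundant arm, miR-410-3p, had 4, 27 and 10 reads in APAP plasma and 11, 14 and 0 reads in methylcellulose plasma, with overlap. Its log2 change was 0.28 (SE 0.57) under TMM and -0.765 under total counts.

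In plasma after CCl4 0 of 2 members tested passed, where 0.433% of all 231 miRNAs did and 12.1% had groups without overlap. Both belong to the Rtl1-antisense group and both had a negative log2 change, and 1, miR-127-3p, had an unadjusted p under 0.05. miR-127-3p had 70.7, 57.5 and 53.5 CPM in CCl4 plasma and 36.9, 438 and 260 CPM in corn oil plasma (log2 change -1.83, SE 0.80, edgeR quasi-likelihood adjusted p = 0.50). miR-434-3p had 71.5, 31.0 and 71.3 CPM in CCl4 plasma and 36.9, 184 and 270 CPM in corn oil plasma (log2 change -1.30, SE 0.72, edgeR quasi-likelihood adjusted p = 0.569).

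Corn oil plasma 1 lay with or below the CCl4 libraries for both. Without it 2 members were called, miR-127-3p and miR-136-5p, both lower in CCl4 plasma, and miR-434-3p was not among them. The filter, applied anew, let 4 members be tested in that fit, and miR-136-5p was not tested with all libraries. miR-127-3p then had a log2 change of -2.38 (edgeR quasi-likelihood adjusted p = 0.0195). The corn oil libraries with high values, 2 and 3, were the shallow ones, with 70736 and 96270 reads against 406613 in corn oil library 1. The muscle list summed to 664.9 to 794 CPM in CCl4 plasma and 202 to 13473 CPM in corn oil plasma, and the red blood cell list to 1875 to 4532 CPM in CCl4 plasma and 551 to 5957 CPM in corn oil plasma. Their part in the difference was not tested.

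**Figure D5:**
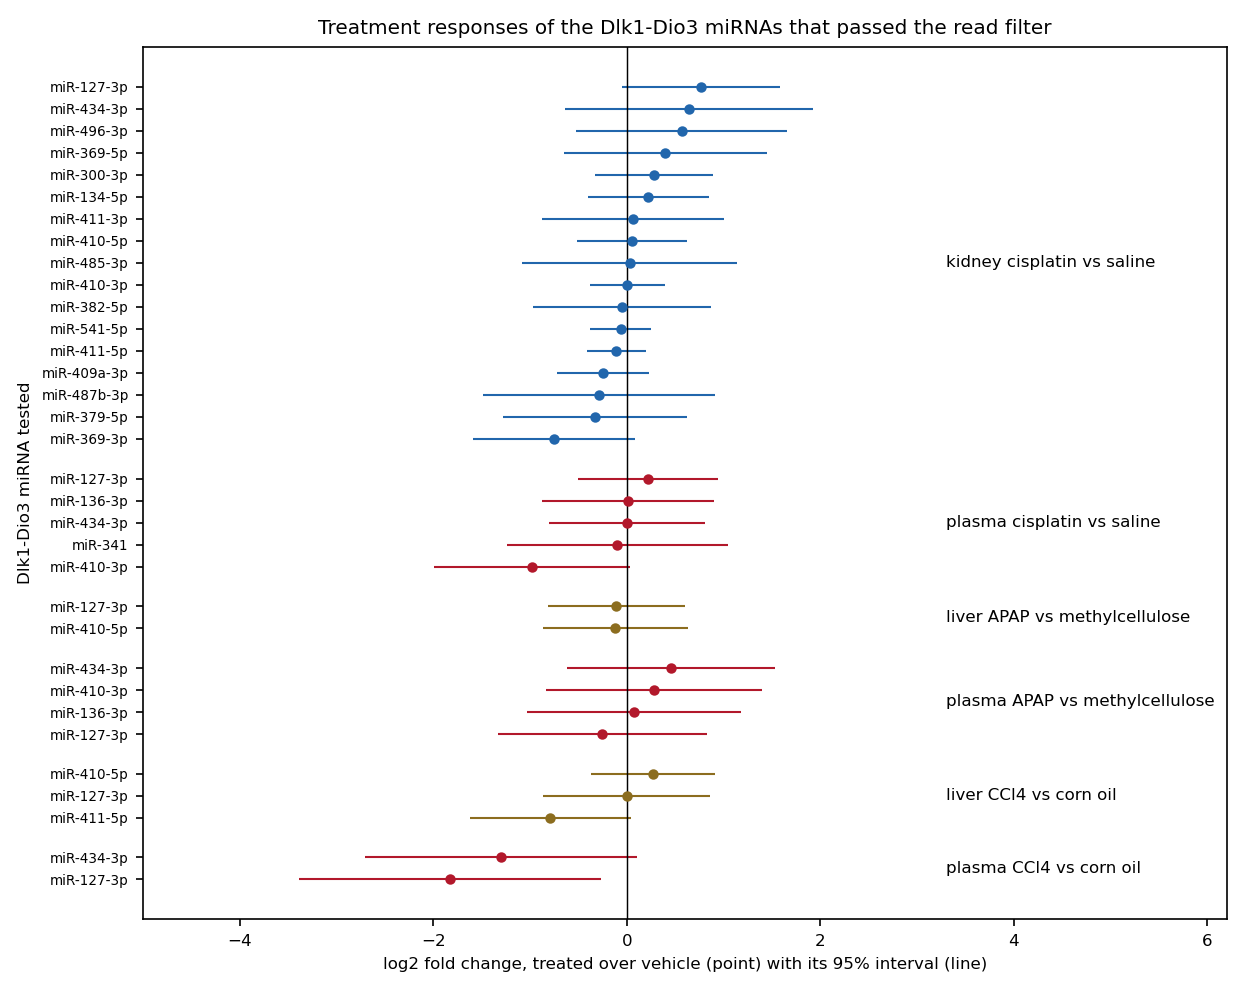
Log2 fold change of treated over vehicle libraries for each member tested in the 6 kidney, liver and plasma comparisons, with its 95% interval from the SE. The interval of miR-127-3p in CCl4 plasma lies below 0, and no member passed the adjusted threshold in any of the 6.

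The responses to the 2 liver toxicants were set against each other by an interaction term. In liver 0 of 3 members and 0.0% of all 262 miRNAs differed, and in plasma 0 of 5 members and 0.0% of all 255. In both, 0 members had an unadjusted p under 0.05. The largest member difference was in plasma, where the log2 change of miR-434-3p was higher by 1.77 after APAP than after CCl4 (SE 0.96, edgeR quasi-likelihood adjusted p = 0.377). APAP and CCl4 share no vehicle rats.

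The reads of the less abundant groups lay mainly in plasma. miR-341, a hairpin between Rtl1 and the long run, had 80 reads in plasma, 12 in kidney and 13 in liver, and its plasma levels ran between 0 and 42.4 CPM with a median of 8.84. Of 11 Meg3-side members 10 were seen in plasma (60 reads), 6 in kidney (9 reads) and 7 in liver (15 reads). The leading ones there were miR-540-3p, with 18 reads in plasma, 1 in kidney and 0 in liver, and miR-665, with 15 in plasma, 1 in kidney and 0 in liver. The counts of the Meg3-side members are too low for a test in the comparisons made, while miR-341 was tested in plasma after cisplatin.

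Urine gave too few reads to measure the cluster. All 18 urine libraries together had 19 member reads among 87823 counted reads, from 13 members. Cisplatin urine 1, the deepest at 58151 reads, had 9 of them, a share of 0.0167% with copies counted once (exact Clopper-Pearson 95% interval 0.00764% to 0.0317%). No member passed the read filter in any of the 3 urine comparisons, in which 14.0% of 43 miRNAs after cisplatin, 0.0% of 26 after APAP and 0.0% of 27 after CCl4 were called. The other urine libraries had at most 6499 counted reads, 0 to 3 member reads each and shares of 0% to 0.284%, and the mean share over all 18 was 0.0696% ± 0.108 (SD). The level of urine cannot be ranked against that of plasma, kidney or liver, and a change in urine was not detectable at this depth.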

How the data were processed

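The authors clipped adaptors from 36-base reads, aligned them with OSA v4 to Rnor_5.0 and miRBase v21, allowing 2 mismatches and at most 10 genomic locations, and deposited raw counts per mature miRNA. Levels here are counts per 1000000 counted reads of a library (CPM), and shares count copies once.

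Counts were tested with edgeR 4.0.16 in R 4.3.3 (TMM, filterByExpr at min.count 10 and min.total.count 15, glmQLFit, 2-sided glmQLFTest, Benjamini-Hochberg adjustment within a comparison, threshold 0.05), and the script was tested on simulated data. With 3 libraries a group, p measures the spread between these libraries. A fold against 0 reads used a floor of 3 counts over the group, and ratios with 1 to 3 counts an exact conditional 95% interval. Python 3.11.15, SciPy 1.17.1, pandas 2.3.3 and NumPy 2.4.6 made the tables. The table held no columns of the authors' own comparisons, and no column was without a sample.

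The members, lists and rules were chosen with earlier results of these data known. Named were the 12 members with most reads and their other arms. In each comparison all members past the threshold were named or, where none passed, the 3 with the smallest p, and members the study names for plasma. Alternatives were RLE factors, total counts, DESeq2 1.42.0, other filters, copies summed, each library left out, a replicate block and the L number in the column names (whose meaning the names do not give) as a term. In the kidney cisplatin comparison the deviations of same-numbered libraries correlated at 0.26, 0.33 and 0.38, so the numbers were taken to pair them there. The block changed no call in that comparison.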

Additional observations from a re-analysis of the deposited data

How the results depend on the processing

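No treatment comparison gained a member under another scaling, filter or tool, and 118 of 119 alternative counts of called members equalled the reported 0. The exception was CCl4 plasma, with 0 to 2 members over the fits that left out a library. Without the filter on low counts the members called were 29 (plasma against kidney, saline), 20 (the same, cisplatin), 30 (kidney against liver), and, for plasma against liver, 6 (methylcellulose), 3 (corn oil), 5 (APAP) and 10 (CCl4). For plasma against liver, total counts gave 2 in methylcellulose and 2 in corn oil rats, DESeq2 gave 2 in corn oil rats, and a mean count of at least 10 gave 2 in methylcellulose and 1 in APAP rats. Leaving out each library gave 8 to 10 members for plasma against kidney in saline rats, 7 to 10 in cisplatin rats, 7 to 8 for kidney against liver, and, for plasma against liver, 2 to 6 (methylcellulose), 1 to 3 (corn oil), 2 to 4 (APAP) and 4 to 6 (CCl4). The filter on low counts was applied anew in each fit that left out a library, so the members tested could change too.

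Without its most abundant miRNA in the total the kidney share was 0.128%. At 3 or more reads the mean number of members seen fell to 29.8 in kidney, 9.11 in plasma and 5.33 in liver. Counting the copies as deposited, and keeping the urine libraries apart in the CCl4 comparison, were chosen after seeing the data and changed no call or order of mean shares.

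Signs turned only for log2 changes that did not pass, and the cause was not tested. In cisplatin plasma the L number gave -0.19 for miR-127-3p and 0.67 for miR-341. In APAP plasma total counts gave -0.78 for miR-434-3p and -0.765 for miR-410-3p. In CCl4 liver miR-127-3p was 0.057 (RLE factors), 0.145 (total counts), 0.0337 (DESeq2), 0.12 (no filter), 0.0773 (mean count) and 0.0877 (copies summed). In plasma against liver of CCl4 rats miR-127-3p was -0.16 without the filter.

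Leaving out each library turned the sign of values that did not pass. The log2 change of miR-127-3p was then -0.10 to 0.48 in cisplatin plasma, -0.51 to 0.38 in APAP liver, -0.84 to 0.11 in APAP plasma and -0.98 to 0.37 in CCl4 liver. For plasma against liver it was -0.039 to 1.26 (methylcellulose), -0.48 to 0.51 (APAP) and -0.31 to 1.05 (CCl4). miR-341 in cisplatin plasma was -0.45 to 0.27, miR-410-5p in APAP liver -0.43 to 0.33, and in APAP plasma miR-434-3p -0.0869 to 0.78 and miR-410-3p -0.10 to 0.40. The difference between the APAP and CCl4 responses was -0.72 to 0.0583 for miR-410-5p and -0.54 to 0.79 for miR-127-3p in liver, and -0.15 to 1.76 for miR-136-5p in plasma.

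With the replicate block, in the comparisons whose numbers did not pair the samples, miR-410-5p in APAP liver was 0.0108 and miR-127-3p in plasma against liver of methylcellulose rats -0.0213. The block left the number of called members as reported except in plasma against liver of CCl4 rats, with 4 (miR-411-5p, edgeR adjusted p = 0.074). Same-numbered libraries correlated between -0.34 and 0.58 there and in the other comparisons without pairing. With 3 libraries a group and few member reads in plasma and urine, depth limited which members could be tested, and a call that was missed does not show equal levels.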
